A study of Homo sapiens with 3 samples.

Results

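The ERBB receptors EGFR, ERBB2, ERBB3 and ERBB4, their ligands NRG1, AREG, EREG and HBEGF and the adaptors GRB2 and GRB7 were examined in Huh7 cells, an established human hepatoma line, with and without chlorogenic acid (CA), a plant polyphenol. These 10 genes, of 19740 named on the array, were found through the RefSeq transcript given for each probe and were measured by 17 of 34127 gene probes. They were picked with their ratios known, since NRG1 was low at CA 50 μM and GRB7 was high at CA 100 μM, so that every ratio below is a description. RNA of 1 untreated culture, 1 culture given CA 50 μM and 1 given CA 100 μM, the CA cultures for 24 h, was measured on 1 Agilent array of a single colour, Cy3, per group. The study's methods give DMSO as the vehicle of its control cells. With 1 array per group there was no replicate, no test was possible, and both comparisons with untreated cells share the untreated array. The work rests on 1 cell line, and in such bulk RNA fewer cells of a type and less RNA per cell cannot be told apart.

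ERBB receptors are transmembrane tyrosine kinases that pair when a ligand binds. EGFR binds the EGF-like ligands amphiregulin (AREG), epiregulin (EREG) and HB-EGF (HBEGF), whereas ERBB3 and ERBB4 bind neuregulins such as NRG1, ERBB2 has no known ligand of its own and ERBB3 has little kinase activity. Phosphorylated receptor tails recruit SH2 domain adaptors, among them GRB2, which links receptors to SOS and RAS, and GRB7, which is often co-amplified with ERBB2 in breast cancer. In liver, EGFR ligands are known for their part in hepatocyte proliferation and regeneration.

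Levels are given as processed signal in intensity units, with the scanner software's error of the spot, or the SD over spots where a probe was printed 10 times. Before ratios were formed, each array was scaled to its 75th percentile, which was 1059 intensity units for untreated cells, 1207 for CA 50 μM and 1249 for CA 100 μM, so that ratios differ from those of the plain signals. Ratios between arrays are log2 values and were formed where the scanner software flagged a probe as well above background, here called the background mark, on both arrays. The yardstick for them was the SD of log2 ratios between spots of the same probe, with a median of 0.06 and of 0.13 in the dimmest of 4 classes of signal for both comparisons with untreated cells. That SD covers printing and scanning only, not the spread between cultures. Where a gene has several probes, letters follow the order of their signal in untreated cells.

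Of the 17 member probes, 14 were well above background on all 3 arrays and 1, ERBB4 b, on none. A diagonal band on the CA 100 μM array held spots that were bright there although their probes were dim on both other arrays. Such disturbed areas covered 2460 of 43118 gene spots on that array, against 60 on the untreated and 38 on the CA 50 μM array. The CA 100 μM spots of NRG1 a and ERBB3 b and 1 of the 10 EGFR a spots lay within it. The hepatocyte markers albumin, AFP, APOA1, APOB and TTR were far above background on all arrays, and 0 of the 14 measured hepatocyte marker probes differed by 2-fold or more at either dose, a count near the share of all measured probes, 1.07% at CA 50 μM and 0.894% at CA 100 μM. HNF4A, a hepatocyte transcription factor, passed the background mark on the CA 50 μM array only, and the transferrin spot was flagged as an outlier on the untreated and CA 50 μM arrays. Albumin itself had 109428, 112826 and 100920 intensity units in untreated, CA 50 μM and CA 100 μM cells.

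**Figure D1:**
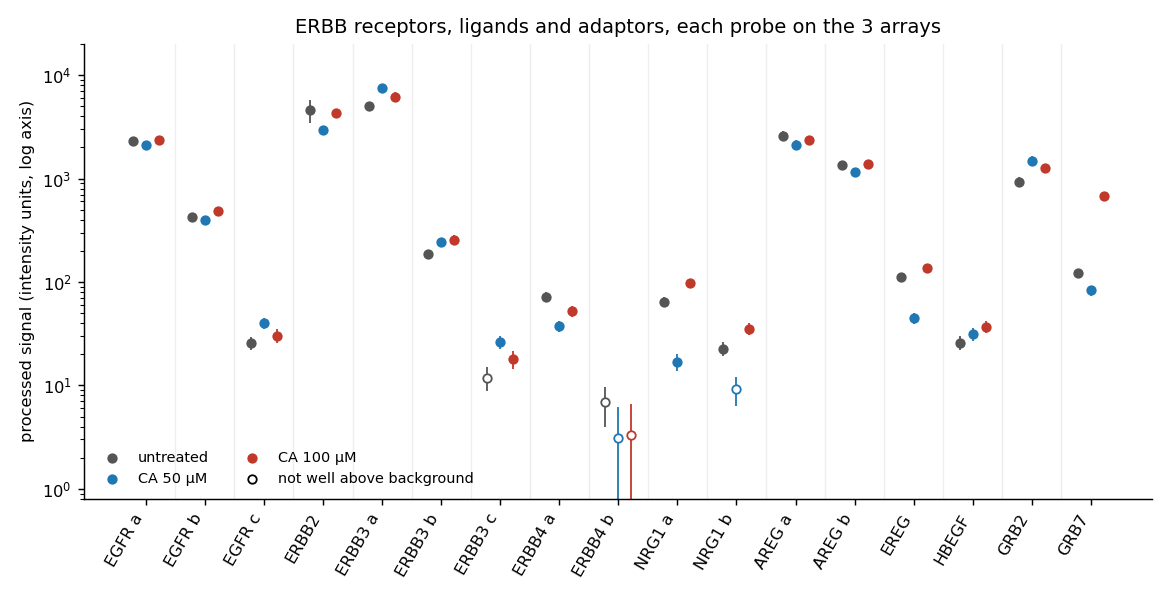
Processed signal (intensity units, log axis, before scaling between arrays) of the 17 member probes on the untreated (grey), CA 50 μM (blue) and CA 100 μM (red) arrays, with bars for the error of a spot or, for EGFR a and ERBB2, the SD over spots. NRG1 and EREG are lowest at CA 50 μM, GRB7 is highest at CA 100 μM, and open points were not well above background.

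NRG1, the neuregulin ligand of ERBB3 and ERBB4, was lower at CA 50 μM by both of its probes. Probe NRG1 a (A_23_P315815) gave 64.3 ± 6.9 intensity units in untreated cells, 16.9 ± 3.2 at CA 50 μM and 97.2 ± 10.2 at CA 100 μM. Lowest was therefore the CA 50 μM array, whose spot lay only a little above the lowest probe signal counted as above background there, 12.5 intensity units. The log2 ratio to untreated cells was -2.11, a signal 4.32-fold lower after scaling. Since NRG1 was picked for this value, the count of 6 in 22471 probes with a ratio of at least that size is a description only. Under the normexp background correction the NRG1 a ratio was -0.81, short of 2-fold. At CA 100 μM the log2 ratio was 0.36, from a spot inside the band, where 14 of 27 neighbouring dim probes were bright on that array alone. The part of the band in that value was not tested.

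Probe NRG1 b (A_33_P3284345), filed under the same transcript, gave 22.7 ± 3.4 intensity units in untreated cells, 9.15 ± 2.83 at CA 50 μM and 35.5 ± 4.6 at CA 100 μM. Since the CA 50 μM spot did not pass the background mark, only a bound can be given, namely at least 2.06-fold lower than untreated, or at least 1.94-fold against a floor set by the lowest single spot. The CA 100 μM spot was outside the band, with 0 of 31 neighbouring dim probes bright, and its log2 ratio to untreated cells was 0.41. Against CA 50 μM, the CA 100 μM array was 5.55-fold higher for NRG1 a (log2 ratio 2.47) and at least 2.73-fold higher for NRG1 b. Both probes thus had the same order of arrays, with CA 50 μM below untreated and CA 100 μM above it. The second step was small and depended on the processing. Under normexp the log2 ratios of CA 100 μM to untreated cells were 0.12 for NRG1 a, whose spot was in the band, and 0.01 for NRG1 b.

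EREG, which encodes epiregulin, a ligand of EGFR and ERBB4, and AREG, which encodes the EGFR ligand amphiregulin, are adjacent protein-coding genes on chromosome 4. RefSeq promoter windows (250 bases before to 50 after a gene start, GRCh38.p14) were listed for 7 of the 10 members and not for ERBB3, NRG1 or GRB7. The neighbours AREG and EREG were chosen with their ratios at CA 50 μM known, and any part of the motifs in those ratios was not tested. Stretches of their windows are shown on the plus strand of chromosome 4 with the motif in capitals. The motifs are the TATA box letters TATAAA in AREG and EREG and the cAMP response element TGACGTCA in AREG.
AREG chr4:74445060-74445089: cggccgggcctTGACGTCAtgggctgcggc
AREG chr4:74445095-74445124: cccggctgagccTATAAAgcggcaggtgcg
EREG chr4:74365101-74365130: ggggctccctagTATAAAgttcgcagcacc
Searched on both strands, TATAAA occurred in 11.5% of 35116 RefSeq windows of this length and TGACGTCA, its own reverse complement, in 1.85%. The AREG window held both motifs and the EREG window held TATAAA and no TGACGTCA. Of the other members with a window, EGFR alone had a match, with TATAAA in 1 of its windows. A match of letters describes the window and is no evidence of a bound factor.

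EREG gave 112 ± 11 intensity units in untreated cells, 44.4 ± 5.2 at CA 50 μM and 136 ± 14 at CA 100 μM. Again CA 50 μM was the low array, with a log2 ratio of -1.52, 2.87-fold lower than untreated, and 35 probes had a ratio of at least that size. With normexp it was -0.86. At CA 100 μM the ratio to untreated cells was 0.05, within the yardstick for a probe of its signal. AREG a gave 2594 ± 259 intensity units in untreated cells, 2131 ± 213 at CA 50 μM and 2336 ± 234 at CA 100 μM. AREG b gave 1341 ± 134, 1151 ± 115 and 1386 ± 139 intensity units in the same order. Both AREG probes were lower than untreated on the scaled values at each dose. Their log2 ratios were -0.47 and -0.41 for CA 50 μM and -0.39 and -0.19 for CA 100 μM. All were past the yardstick of 0.05 to 0.06 for their signal, which covers printing and scanning only, and none was as large as 2-fold. The smallest, AREG b at CA 100 μM, was an ordinary value, since 7859 of 22267 probes had a ratio of at least that size. HBEGF, whose product binds EGFR and ERBB4, was dim throughout, with 25.9 ± 3.9 intensity units untreated, 31.3 ± 4.4 at CA 50 μM and 36.7 ± 5.0 at CA 100 μM. Its log2 ratios of 0.08 and 0.27 became -0.15 and -0.19 under the normexp background correction, so that it has no settled direction.

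GRB7, an adaptor that binds ERBB2 and other receptor tails through its SH2 domain, was the member with the largest ratio at CA 100 μM. Its only probe (A_23_P163992, printed once) gave 122 ± 13 intensity units in untreated cells, 82.8 ± 8.9 at CA 50 μM and 676 ± 68 at CA 100 μM. This last array stood well above both others, and that of CA 50 μM was the lowest. The log2 ratio to untreated cells was 2.23 at CA 100 μM, 4.69-fold higher. Since GRB7 was picked for this value, the count of 4 in 22267 probes with a ratio of at least that size is a description only. At CA 50 μM the ratio was -0.75, 1.68-fold lower. Between the doses it was 2.98, 7.90-fold higher at CA 100 μM. The spot was at row 9 and column 55 of the array, far from the band, and 0 of 34 neighbouring dim probes were bright on the CA 100 μM array alone. The median log2 ratio of the spots around it was -0.07 at CA 100 μM, so that subtracting it gave 2.30. GRB2, the adaptor that couples receptors to SOS, gave 930.5 ± 93.1 intensity units untreated, 1494 ± 149 at CA 50 μM and 1251 ± 125 at CA 100 μM. Its log2 ratios were 0.49 and 0.19, so that CA 50 μM was its highest array.

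**Figure D2:**
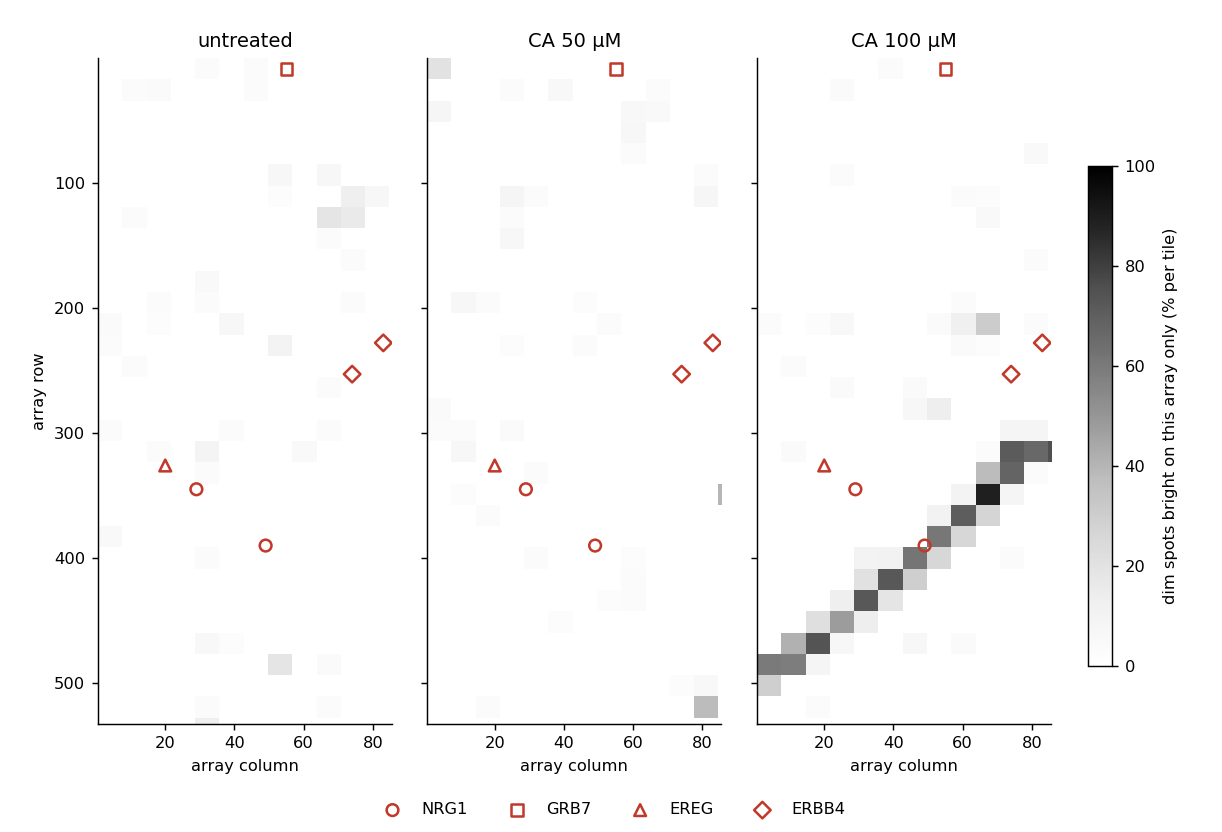
Surface of each array in tiles of 17 rows and 7 columns, shaded by the percentage of dim spots that were at least 4-fold brighter on that array than on both others, with the spots of NRG1, GRB7, EREG and ERBB4 marked. The band is on the CA 100 μM array, with 1 NRG1 spot on it and the GRB7 spot at row 9, far away.

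GRB7 lies on chromosome 17 with 1 protein-coding gene, MIEN1, between it and ERBB2, and 15 protein-coding genes around the pair were taken from a list. MIEN1 gave 6414, 6383 and 7313 intensity units in untreated, CA 50 μM and CA 100 μM cells, with log2 ratios of -0.20 and -0.05. Of the 14 measured neighbour probes, 0 were 2-fold or more higher at CA 100 μM, near the share of 0.638% over all measured probes. Their median log2 ratio was 0.14 and the highest 0.40. The brightest, ORMDL3, had log2 ratios of 0.17 and 0.00. ZPBP2, dim on the other arrays, gave a bound of at least 2.25-fold higher at CA 100 μM, from a spot inside the band. STARD3, a lipid transfer protein often co-amplified with ERBB2, had a probe with 4585 intensity units untreated, 2268 at CA 50 μM and 2994 at CA 100 μM. Its log2 ratios were -1.20 and -0.85, whereas the other STARD3 probe had -0.29 and 0.25, so that the gene's probes disagreed.

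ERBB2, the ligandless receptor, was lower at CA 50 μM. Its probe was printed 10 times, and after 1 outlier spot was left out on the untreated array it gave 4570.5 ± 1121.4 intensity units there (SD, 9 spots), 2960 ± 276 at CA 50 μM (10 spots) and 4306 ± 393 at CA 100 μM (10 spots). Spots ranged from 3487 to 7127 intensity units untreated, from 2665 to 3500 at CA 50 μM and from 3821 to 4859 at CA 100 μM, so that before scaling the untreated and CA 50 μM spots overlapped at 1 edge and those of the doses did not. After scaling, the highest CA 50 μM spot, at a log2 value of 1.54, was below the lowest untreated one, at 1.72. Both of the highest untreated spots were in the last rows of the array, 7127 intensity units at row 503 and the outlier of 7930 at row 491. The median log2 ratio of the spots around them, CA 50 μM against untreated, was -0.01 at row 503 and 0.03 at row 491. The cause of the high values was not tested. On the untreated array the ERBB2 spots had an SD of 0.32 on the log2 scale, the 24th widest of 821 such probes, whose median was 0.06. The log2 ratio to untreated cells was -0.79 at CA 50 μM, with single spots from -1.35 to -0.47, and -0.30 at CA 100 μM, with spots from -0.90 to -0.01. The median over spots gave -0.73 and -0.22. Between the doses, where the untreated array has no part, the ratio was 0.49, with spots from 0.37 to 0.76.

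EGFR was measured more evenly. Probe EGFR a, under the transcript of the full-length receptor and also printed 10 times, gave 2291 ± 83 intensity units untreated (SD, 10 spots), 2120 ± 43 at CA 50 μM (9 spots) and 2343 ± 79 at CA 100 μM (9 spots). Its log2 ratios after scaling were -0.30 and -0.21, with every spot negative, from -0.36 to -0.22 and from -0.30 to -0.13. EGFR b, filed under a transcript of a shorter receptor form, gave 425 ± 43, 396 ± 40 and 484 ± 48 intensity units, with log2 ratios of -0.29 and -0.05. EGFR c, under another shorter form, was dim at 25.8 ± 3.8, 40.2 ± 4.9 and 30.3 ± 4.4 intensity units, and its ratio at CA 50 μM was positive, 0.45. The EGFR probes thus differed in direction at CA 50 μM, the dim one against both brighter ones.

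**Figure D3:**
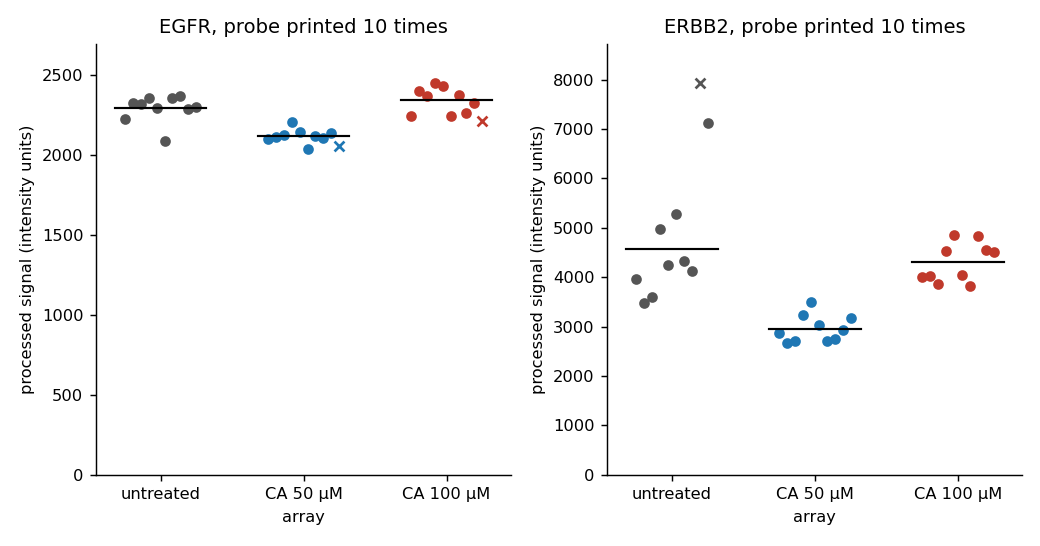
Processed signal (intensity units) of the 10 spots of the EGFR a and ERBB2 probes on each array in order of array row, with crosses for spots flagged as outliers and lines at the means without them. The EGFR spots lie close together, whereas the untreated ERBB2 spots run from 3487 to 7127, with the outlier at 7930.

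ERBB3, the kinase-impaired neuregulin receptor, was measured by 3 probes, of which ERBB3 a was the brightest, with 5003 ± 500 intensity units untreated, 7467 ± 747 at CA 50 μM and 6192 ± 619 at CA 100 μM. Its highest array was CA 50 μM, with a log2 ratio of 0.39, and the ratio at CA 100 μM was 0.07. ERBB3 b, under a shorter, secreted form, gave 186 ± 19, 242 ± 24 and 256 ± 26 intensity units, with log2 ratios of 0.19 and 0.22. Its CA 100 μM spot was in the band, where 24 of 34 neighbouring dim probes were bright. ERBB3 c did not stand well above background on the untreated array, at 11.9 ± 3.1 intensity units, and gave 26.4 ± 3.9 and 18.0 ± 3.7 at the doses, which are bounds of at least 1.90-fold and 1.25-fold higher. No ERBB3 probe was lower than untreated at either dose.

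ERBB4, the neuregulin receptor with full kinase activity of its own, was dim. ERBB4 a gave 72.2 ± 7.7 intensity units untreated, 37.6 ± 4.7 at CA 50 μM and 52.3 ± 6.1 at CA 100 μM. Both doses were below untreated, with a log2 ratio of -1.13 at CA 50 μM, 2.19-fold lower, and of -0.70 at CA 100 μM. With normexp the first was -0.66, also short of 2-fold. ERBB4 b, with 6.84, 3.09 and 3.34 intensity units, stayed below that mark on all arrays and gives no ratio.

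Counted over members, differences of 2-fold or more were few. At CA 50 μM, 0 of 14 measured member probes were at least 2-fold higher, where 0.614% of all 22471 measured probes were, and 3 were at least 2-fold lower, those of NRG1, EREG and ERBB4, where 0.458% of all probes were. Since members were picked on these ratios, nothing is read from the difference in shares. Of bounds, the single member that could give one, NRG1 b, was at least 2-fold lower, as were 18.4% of all such probes, and ERBB3 c did not reach 2-fold higher, which 6.98% did. At CA 100 μM, 1 of 15 measured member probes, GRB7, was at least 2-fold higher, where 0.638% of all 22267 probes were, and 0 were lower, where 0.256% were. Of the 142 probes behind the first share many lay in the band, and without disturbed areas 48 of 20965 probes were at least 2-fold higher. The bound of ERBB3 c stayed under 2-fold, which 40.0% of such bounds passed on that array. Spots of the band enter that share too, and their part in it was not tested. Nearest the 2-fold line were ERBB4 a inside and ERBB2 outside it at CA 50 μM, while at CA 100 μM the next after GRB7 was ERBB4 a.

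At CA 50 μM the median log2 ratio was -0.36 over the 14 member probes, 9 of them below 0, against -0.01 over all measured probes, of which 51.8% were below 0 and whose ratios had an SD of 0.33. At CA 100 μM it was 0.05 over 15 member probes, 7 of them below 0, against -0.02 over all probes, of which 54.8% were below 0, with an SD of 0.28. Between the doses, 3 of 15 member probes, GRB7, NRG1 a and EREG, were at least 2-fold higher at CA 100 μM, where 0.681% of all 22453 probes were, and 0 were lower, where 0.174% were. The bound of NRG1 b also passed 2-fold, as did 54.3% of such bounds. Spots of the band enter that share, as they do the 0.681%, whereas the NRG1 b spot lay outside the band. The part of the band in the bounds was not tested. EREG had a log2 ratio of 1.57 between the doses, 2.97-fold.

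**Figure D4:**
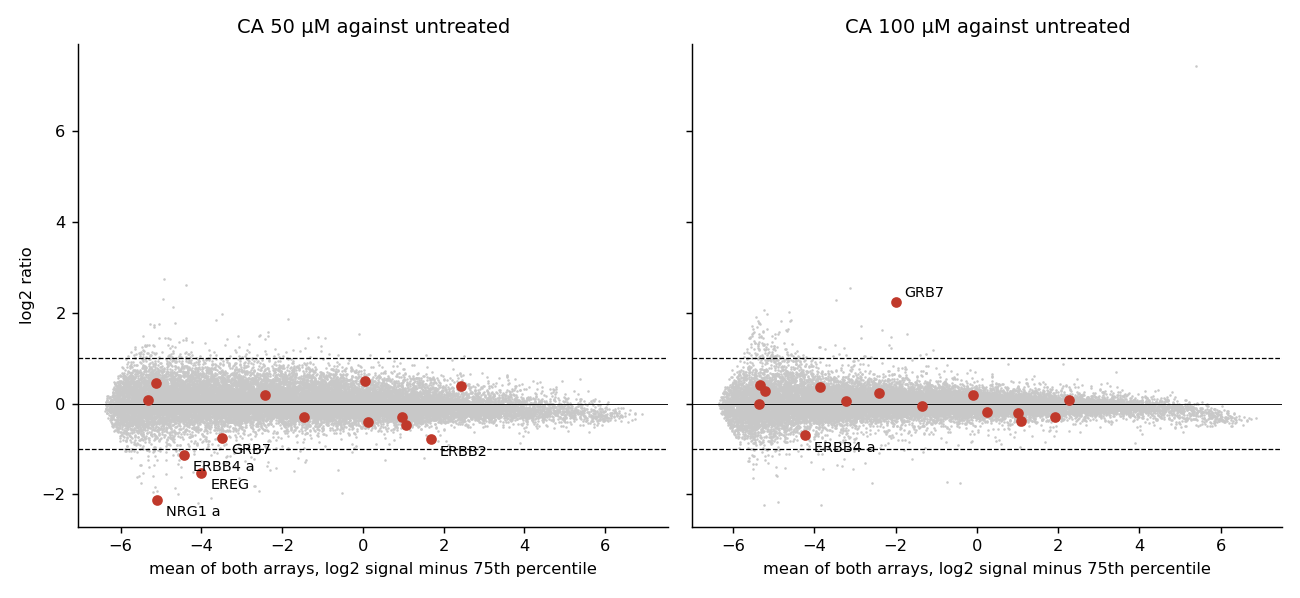
Log2 ratio to untreated cells against mean scaled log2 signal for all measured probes (grey) and member probes (red), 1 panel per dose, with dashed lines at 2-fold. NRG1 a, EREG and ERBB4 a lie below the lower line at CA 50 μM, and GRB7 lies at 2.23 at CA 100 μM.

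The rest of the pathway was taken from a list. Its 99 genes, comprising other ligands, sheddases with their iRhom partners, signalling proteins, inhibitors, response genes and the neighbours of ERBB2, had 122 probes, of which 104 were measured in both comparisons. At CA 50 μM, 0 of these were at least 2-fold higher and 1 lower, with a median log2 ratio of 0.01. At CA 100 μM, 1 was higher and 0 lower, with a median of 0.02. These counts are near the shares over all probes given above, which come to under 1 probe of 104 in each direction. The lower probe was that of STARD3 and the higher one that of FOSB.

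Of 7 other ligand genes, 4 were measured, and their log2 ratios ran from -0.43 to -0.04 at CA 50 μM and from -0.33 to -0.05 at CA 100 μM. EGF itself, with 803 intensity units untreated, 875 at CA 50 μM and 913 at CA 100 μM, had log2 ratios of -0.07 and -0.05. BTC, EPGN and NRG2 did not pass the background mark on any of the arrays. The ADAM sheddases, which release ligands from the cell surface, and the inactive rhomboids RHBDF1 and RHBDF2, which serve ADAM17, had together 7 measured probes of 6 genes with medians of -0.15 and 0.12. The brightest, RHBDF2, had 2924, 2804 and 3067 intensity units and ratios of -0.25 and -0.17. None of the 40 measured probes of 33 adaptor, RAS, MAPK, PI3K and STAT genes differed by 2-fold or more, again near the share over all probes, with medians of 0.03 and 0.02. PIK3R2, a regulatory subunit of PI3K, had the brightest of them, with 10906, 9436 and 12306 intensity units and ratios of -0.40 and -0.06.

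Of the feedback inhibitors, 19 probes of 17 genes were measured, with medians of 0.00 and -0.03. None was past 2-fold, again near the share over all probes. ERRFI1, which binds and blocks the EGFR kinase, gave 18125 intensity units untreated, 19253 at CA 50 μM and 19773 at CA 100 μM, with log2 ratios of -0.10 and -0.11. The response genes of the receptor pathway had 20 measured probes of 19 genes with medians of 0.05 and 0.04. Single probes went both ways, from -0.74 to 0.91 at CA 50 μM and from -0.61 to 1.25 at CA 100 μM. The brightest, DUSP6, a phosphatase of ERK, gave 11725, 13179 and 13522 intensity units, with ratios of -0.02 and -0.03. FOSB, an immediate early transcription factor, gave 46.7 intensity units untreated, 40.6 at CA 50 μM and 131 at CA 100 μM. Its highest array was the last of these, with log2 ratios of -0.39 and 1.25. Between the doses FOSB and PHLDA1, the second named after its value was seen, were at least 2-fold higher at CA 100 μM, with log2 ratios of 1.64 and 1.04. These were 2 of the 104 measured probes of the whole list, where 0.681% of all 22453 probes were higher, a share that spots of the band enter. In the list 0 were lower, where 0.174% of all probes were.

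**Figure D5:**
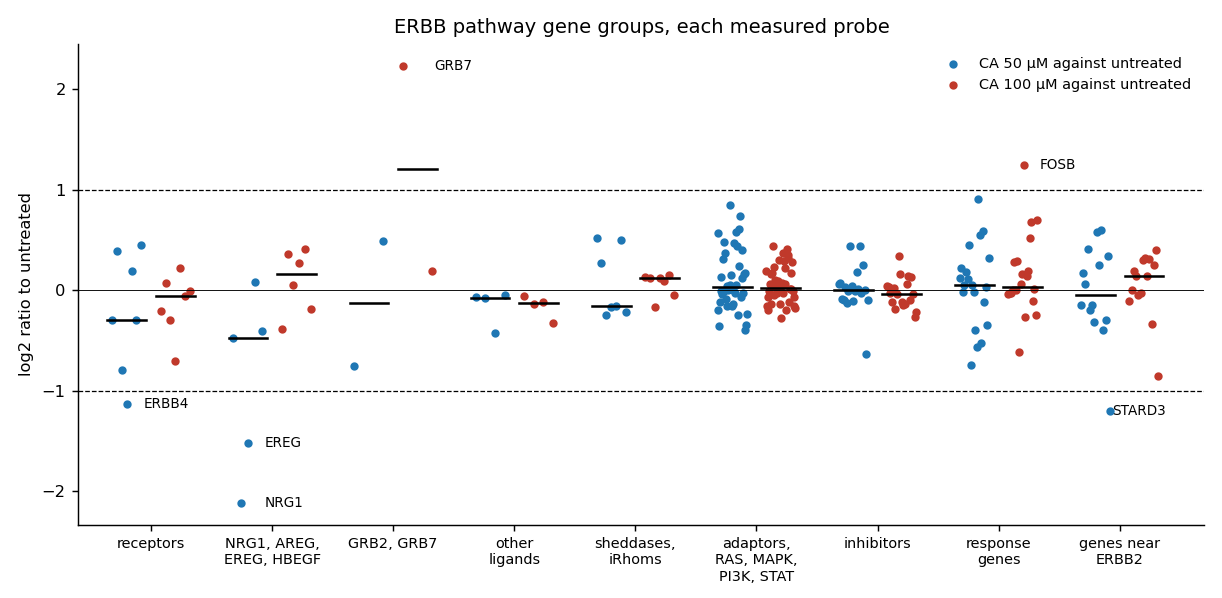
Log2 ratio to untreated cells of each measured probe of the members and other pathway groups, for CA 50 μM in blue and CA 100 μM in red, with black lines at group medians and dashed lines at 2-fold. Outside the members, STARD3 at CA 50 μM and FOSB at CA 100 μM are past the dashed lines.

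Among markers of other cell types, a keratin was also low at CA 50 μM and high at CA 100 μM. Of the basal epithelial markers, KRT5 and TP63 passed the background mark on none of the arrays, while KRT14 gave 306 intensity units untreated, 99.1 at CA 50 μM and 765 at CA 100 μM. Its log2 ratios were -1.81, 1.09 and, between the doses, 2.90. The summed signal of that list, as a percentage of the 75th percentile of each array, was 29.4, 8.73 and 61.8. Its part in the NRG1, EREG and GRB7 values was not tested. Markers of fibroblasts, endothelium, leukocytes and glia had 4, 5, 7 and 1 measured probes, of which 0 were past 2-fold with either dose. For so few probes that count is near the share over all measured probes, 1.07% for the lower dose and 0.894% for the higher. Nothing is therefore read from it about these cell types. The brightest of each list in untreated cells were COL1A2, PECAM1, CD14 and SOX10, and SOX10 had only 25.7 intensity units there. Summed in the same way, the fibroblast list ranged from 58.5 to 64.6, the endothelial list from 131 to 146, the leukocyte list from 88.7 to 96.4 and the glial list from 3.56 to 5.10. COL1A1 gave a bound of at least 3.59-fold higher at CA 100 μM from a spot in the band.

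The genes with ratios most like those of NRG1 and GRB7 were sought among 18344 named probes well above background on all arrays, by the distance over the pair of log2 ratios to untreated cells. Closest to NRG1 a was SH3BGRL at a distance of 0.25, with 80.9 intensity units untreated, 25.4 at CA 50 μM and 123 at CA 100 μM. LDHB, a lactate dehydrogenase subunit, and MSN, the membrane linker moesin, followed at 0.50 and 0.51. LDHB gave 343, 104 and 376 intensity units, and MSN gave 81.3, 30.2 and 133. Closest to GRB7 was CYP24A1, the vitamin D 24-hydroxylase, at 0.40, with 50.4 intensity units untreated, 40.2 at CA 50 μM and 349 at CA 100 μM. Next were the acute-phase inhibitor SERPINA3 and the orphan receptor GPRC5A at 0.64 and 0.65, with log2 ratios of 2.28 and 1.83 at CA 100 μM. All 6 spots were outside disturbed areas. With a pair of ratios from 3 arrays, such likeness describes these arrays only.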

How the data were processed

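The authors amplified total RNA, labelled the product with Cy3 and hybridised it to 1 Agilent whole genome array per group and extracted the scans with Feature Extraction 11.0.1.1. The deposited intensity values used here are processed signals, background-subtracted and detrended over the surface by that software and not scaled between arrays. The table of log2 values that the authors also deposited has an unstated method. Its columns share their quartiles (2.96, 6.22 and 9.68) and correlate with log2 of the processed signal at 0.99995 to 0.99998, so that it served as an alternative. The arrays shared 1 slide and scan, so that neither was a block.

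Control spots and spots with an outlier flag (429, 569 and 596 gene spots for untreated, CA 50 μM and CA 100 μM) were left out. Values were log2 intensity minus the 75th percentile of each array, spots of a probe were averaged, and well above background meant that at least 50% of the spots of a probe were flagged so. This held for 70.4%, 71.1% and 70.9% of gene spots. Probes of a gene were kept apart, and 1 array per group limits the precision. For a probe above background on 1 of a pair of arrays, a bound was formed against the higher of its own signal and the lowest probe signal counted as above background, 12.2, 12.5 and 14.8 intensity units. Probes were named through their RefSeq accessions (25771 of 34127, 75.5%), with a gene table of GRCh38.p14, and no coordinates are given for probes since the array was annotated on GRCh37.

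A disturbed area was a window of 17 rows by 7 columns with at least 5 spots, and 25% of the spots of probes dim on both other arrays, that were at least 4-fold brighter on 1 array. Members and lists were chosen with earlier results of these data known. All member probes were named, and of other lists the genes with a 2-fold difference or bound against untreated cells and the brightest of each group, and the 3 genes with patterns nearest to NRG1 and GRB7. Alternatives were quantile normalization, cyclic loess, the median of measured probes, normexp (offset 50, on median signals), the deposited log2 values, a filter on 1 array, no filter, outlier spots kept, saturated spots left out, no disturbed areas and a single-spot floor. The median over spots and subtraction of the local median ratio were added after the data were seen. In a simulation of CA 50 μM against untreated with 22449 probes, the steps recovered 200 of 200 probes set to change 4-fold and called 0 others, which checks the arithmetic under spot noise only. Python 3.11.15, numpy 2.4.6, pandas 2.3.3, R 4.3.3 and limma 3.58.1 were used.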

Additional observations from a re-analysis of the deposited data

How the results depend on the processing

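Each group has 1 array, so that leaving out a replicate was impossible and the spread between cultures is unknown. No paired analysis was possible because each group holds 1 sample. None of the 524 alternative values of the member ratios reversed a difference of 2-fold or more. Most belong to ratios under 2-fold, which had no such difference to reverse. Of these smaller ratios, HBEGF in each comparison, EGFR c at CA 100 μM and ERBB3 b between the doses changed sign under some setting. GRB7 at CA 100 μM stayed past 2-fold in all 12, from 1.73 to 2.30. Its probe is a single unflagged spot outside disturbed areas. The filters, the outlier, saturation and disturbed area settings and the median over spots therefore return its reported value by construction. All settings reuse the same arrays. Under normexp, which changed the input signal, the background model and the offset together, the log2 ratios to untreated cells at CA 50 μM were -0.81 for NRG1 a, -0.86 for EREG and -0.66 for ERBB4 a, so that member probes at least 2-fold lower at CA 50 μM went from 3 to 0 and those higher between the doses from 3 to 1. With no filter, 5 member probes were lower at CA 50 μM, but these include NRG1 b and ERBB4 b, which did not pass the background mark on that array. ERBB4 b, which passed it on none of the arrays, was the only member probe lower at CA 100 μM. Ratios of such signals are not read as further members with a difference. The counts over all probes also rose under this setting, as given below. Without disturbed areas NRG1 a has no value at CA 100 μM, and the GRB7 ratio was as in the report.

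Of 204 alternative counts of probes past 2-fold, 171 were within 1.5 times the count as reported. Over all probes, those higher at CA 50 μM, CA 100 μM and between the doses numbered 138, 142 and 153, and those lower 103, 57 and 39. Under normexp these became 19, 8 and 19 higher and 19, 8 and 8 lower, with a filter on 1 array 407, 765 and 739 higher and 316, 271 and 258 lower, and with no filter 1074, 1360 and 1219 higher and 1050, 1139 and 937 lower. Without disturbed areas 48 were higher at CA 100 μM and 48 between the doses. In the pathway list, normexp left 0 higher at CA 100 μM and 0 between the doses. A filter on 1 array gave 1 higher at CA 50 μM and 2 at CA 100 μM. No filter gave 1 higher at CA 50 μM, 3 higher and 1 lower at CA 100 μM, and 4 higher and 1 lower between the doses. The filters changed how many dim probes entered, and for the other settings the cause was not tested. The CA 50 μM signals of NRG1 lie near the edge of what the scan separates from background.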
